A study of Rattus norvegicus with 6 samples.

Results

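The enzymes and carriers of purine breakdown and urate handling were followed in rat liver after tienilic acid (TA), a uricosuric diuretic that lowers serum urate by raising its renal excretion. The group held 9 genes picked by name, Ada, Pnp, Gda, Xdh, Aox1, Mocos, Uox, Slc2a9 and Slc17a1, through every probe set that the platform annotation assigns to that symbol alone. This gave 11 probe sets of the 31042 on the arrays, since Pnp and Gda had 2 each. All 11 were among the 18625 whose mean level passed the filter on low values, so no gene was lost. The genes were chosen with earlier results of these data known, so their counts below describe the list and do not test it. Livers of male Sprague Dawley rats were profiled on 6 arrays after TA at 100 mg/kg by gavage or after the sodium bicarbonate solution used to dissolve it. TA animals killed at 6 h had 1 dose and those killed at 24 h had 2 doses, with 2 arrays per time and 1 animal per array. The vehicle rats had 1 or 2 doses of sodium bicarbonate and were killed at the same times, but the RNA of the 2 vehicle rats of a time was pooled on 1 array. The 8 animals thus gave 2 TA values and 1 vehicle value per time, and both TA animals were set against the same pool. Time since the first dose and number of doses cannot be told apart in this design.

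Purines are broken down by a fixed route. Adenosine is deaminated to inosine, inosine and guanosine are split to hypoxanthine and guanine, guanine is deaminated to xanthine, and xanthine dehydrogenase carries hypoxanthine and xanthine on to urate. In rodents urate oxidase then oxidises urate in liver peroxisomes, the ring is opened by the next enzyme, Urah, and Urad acts after it, which keeps blood urate low, whereas humans lack a working enzyme. Xanthine dehydrogenase and aldehyde oxidase both carry a molybdenum cofactor that has to be sulfurated by Mocos before they can work.

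Of the 9 genes, Mocos and Ada stood furthest above the vehicle pool at 6 h, by 3.66-fold and 2.26-fold as the mean of 2 animals. At 24 h Mocos was 1.60-fold above its pool and Ada was level with its own. Slc17a1, a phosphate and urate carrier, was 1.62-fold above the pool at 24 h. The enzymes that make and degrade urate differed little, with 24 h differences of -0.05 on the log2 scale for Xdh and 0.25 for Uox. None of the 9 passed limma's test with Benjamini-Hochberg adjustment at either time. In that test 0 of 18625 probe sets were called at 6 h (0%) and 1 at 24 h (0.00537%). At an unadjusted limma p under 0.05, 2 of the 9 genes were counted at 6 h, Mocos and Ada, where 5.84% of all probe sets were, and 2 at 24 h, Mocos and Slc17a1, where 5.28% were. The 1 probe set called at 24 h has no single gene symbol and was high on only 1 array, the vehicle pool of 24 h, with 9.84 beside 2.61 or less elsewhere.

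**Figure D1:**
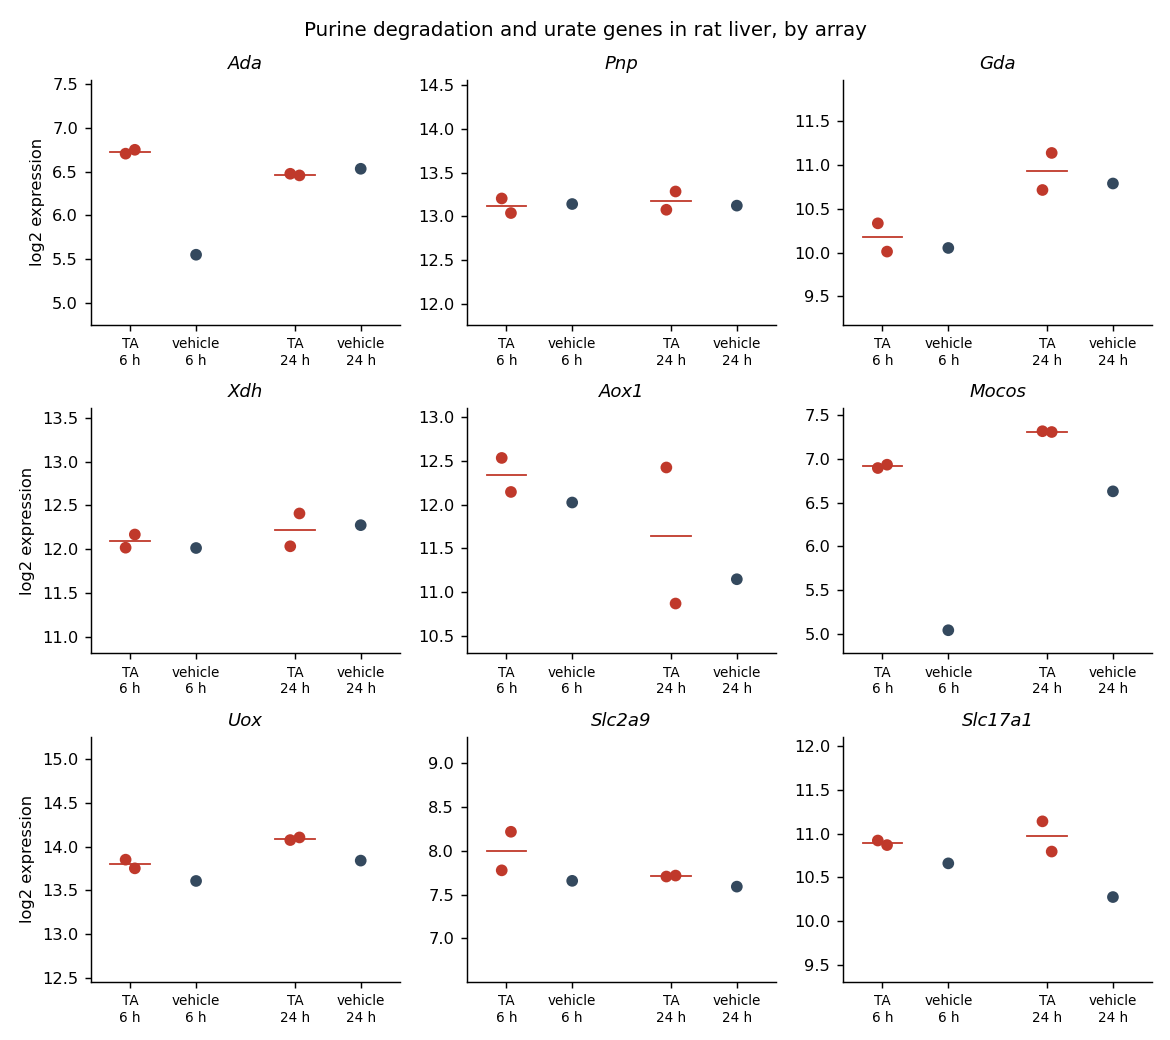
Deposited log2 expression of the 9 genes, 1 panel each, on the 6 arrays; red points are single TA animals with a line at their mean, dark points are vehicle pools, and all panels span the same number of log2 units. Mocos and Ada are lowest in the vehicle pool of 6 h, at 5.04 and 5.55, and the 2 TA animals of 24 h stand 1.55 apart in Aox1.

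All levels below are deposited log2 values, and a difference of 1 is 2-fold. A level can be compared between arrays for 1 probe set but not between probe sets. Errors are limma's standard errors (SE), which combine the spread of the 2 pairs of TA animals with a prior spread estimated over all kept probe sets. They assume that a vehicle pool varies as a TA animal does. Where the TA animals of each pair lay close together, as for Mocos and Ada, the SE of 0.09 was set largely by that prior. The median SE over all probe sets was 0.15. Hepatocyte markers showed the labelled tissue, since 7 of 9 had a probe set above the filter and their mean level lay between 15.35 and 15.44 on the 6 arrays. Macrophage markers averaged 9.63 and 9.33 in the TA animals at 6 h against 9.25 in the vehicle pool, and 8.97 and 9.30 at 24 h against 9.15. Erythroid markers, 3 of 5 above the filter, averaged 9.87 and 9.66 at 6 h in the TA animals against 9.24 in the pool, and 9.35 and 10.44 at 24 h against 9.84. On the summed scale the macrophage markers had log2 values of 13.47 and 13.18 in the TA animals at 6 h against 13.16 in the pool, and the erythroid markers 14.04 and 13.73 against 13.78. Neutrophil markers, of which S100a8 and S100a9 passed the filter, averaged 3.94 and 4.44 in the TA animals at 6 h against 3.85 in the pool, and 3.87 and 4.27 at 24 h against 4.64. Stellate cell markers, 6 of 7 above the filter, averaged 9.53 and 8.74 in the TA animals at 6 h against 9.01, and 7.86 and 8.50 at 24 h against 8.63. At 24 h 4 of the 6 were below the pool in both animals, where 34.5% of all genes were. The part of these markers in the values of 24 h was not tested. In whole liver, fewer cells of a type and less RNA per cell cannot be told apart. No fluidics run is stated for the arrays. Clock times in the array settings place the vehicle pool of 6 h and TA animal 1 of 6 h in 1 inferred run. They place the 4 other arrays in another.

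Adenosine deaminase (Ada) turns adenosine into inosine and deoxyadenosine into deoxyinosine. Ada had 6.71 and 6.75 in the TA animals at 6 h, against 5.55 in the vehicle pool of 6 h. At 24 h Ada had 6.48 and 6.46 in the TA animals, against 6.53 in the vehicle pool. The vehicle pool of 6 h was the low one of these 6 values, and the other 5 lay between 6.46 and 6.75. The difference from the pool was 1.18 ± 0.09 (SE) at 6 h, ranked 7 of 18625 by p (limma adjusted p = 0.64), and -0.07 ± 0.09 at 24 h (adjusted p = 1.00). The difference between these effects, 24 h minus 6 h, was -1.24 ± 0.13 (limma adjusted p = 1.00). The vehicle pools themselves stood 0.98 apart, and against the vehicle pool of 24 h the TA animals of 6 h were higher by only 0.19. TA animal 1 of 6 h, in the same inferred fluidics run as its pool, was 1.15 above it. Ada is abundant in lymphoid cells. Only 2 of 8 lymphocyte markers, Cd3e and Ptprc, passed the filter, and their mean level was 5.76 and 5.74 in the TA animals of 6 h against 5.68 in the vehicle pool. The mean levels of macrophage, erythroid and neutrophil markers were also higher in both TA animals of 6 h. On the summed scale the erythroid markers were not higher in TA animal 2, with 13.73 against 13.78 in the pool. The part of the macrophage, erythroid and neutrophil markers in the Ada values was not tested.

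Purine nucleoside phosphorylase (Pnp) splits inosine and guanosine into the free base and ribose phosphate. Its brighter probe set had 13.20 and 13.04 in the TA animals at 6 h, against 13.14 in the vehicle pool, and 13.08 and 13.28 at 24 h, against 13.12. The pool lay between the 2 TA animals at both times, and the differences were -0.02 ± 0.15 and 0.06 ± 0.15. The other probe set was dim, between 3.68 and 3.78, with differences of 0.03 at 6 h and 0.05 at 24 h. Pnp had the narrowest range of the 9 genes over the 6 arrays, 0.25.

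Guanine deaminase (Gda) makes xanthine from guanine. Its brighter probe set had 10.33 and 10.01 in the TA animals at 6 h, against 10.05 in the vehicle pool, and 10.72 and 11.14 at 24 h, against 10.79. The other probe set had 9.85 and 10.01 in the TA animals at 6 h, against 9.78 in the pool, and 10.75 and 10.36 at 24 h, against 10.80. Arrays of 24 h were higher than those of 6 h in both probe sets, in TA animals and in vehicle pools alike. Between the TA groups the difference, 24 h minus 6 h, was 0.75 ± 0.21 and 0.62 ± 0.17 (limma adjusted p = 0.27 for both). Between the vehicle pools it was 0.74 and 1.03, with no test. Against the pool of the same time the differences were 0.12 ± 0.26 and 0.16 ± 0.21 at 6 h, and 0.14 ± 0.26 and -0.25 ± 0.21 at 24 h, where the probe sets disagreed in sign.

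Xanthine dehydrogenase (Xdh) makes urate and is the target of allopurinol. Xdh had 12.02 and 12.17 in the TA animals at 6 h, against 12.01 in the vehicle pool. At 24 h it had 12.03 and 12.41 in the TA animals, against 12.27 in the pool. The pool of 24 h lay between the TA animals, and the pool of 6 h lay just under them. The differences were 0.08 ± 0.21 at 6 h and -0.05 ± 0.21 at 24 h.

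Aldehyde oxidase (Aox1) is the sister molybdenum enzyme of Xdh and oxidises many drugs and heterocycles. Aox1 had 12.53 and 12.14 in the TA animals at 6 h, against 12.02 in the vehicle pool. At 24 h it had 12.42 and 10.87 in the TA animals, against 11.15 in the pool. Both TA animals of 6 h stood above their pool, while those of 24 h lay on either side of theirs. Their distance of 1.55 exceeded 2-fold, as it did for 1 of the 9 genes and for 2.71% of all genes. With that spread the differences were 0.31 ± 0.74 at 6 h and 0.50 ± 0.74 at 24 h. Erythroid markers separated the same 2 animals of 24 h in the opposite direction, 9.35 in animal 1 and 10.44 in animal 2. Macrophage, sinusoidal endothelial, stellate cell and neutrophil markers did so by less. Cholangiocyte markers, 2 of 5 above the filter, went the same way as Aox1, with 8.04 in animal 1 and 7.42 in animal 2. The part of these markers in the Aox1 values was not tested. Over the 6 arrays Aox1 ran against Xdh (Pearson r = -0.92, a description over arrays that share 2 vehicle pools). Aox3 and Aox4, close relatives of Aox1, follow it in the RefSeq gene order. Aox4 had its own dim probe set, with 3.84 and 3.58 in the TA animals of 24 h, against 3.61 in the pool. Probe sequences were not used here, so hybridisation of Aox3 and Aox4 transcripts to the Aox1 probe set was not tested.

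Molybdenum cofactor sulfurase (Mocos) adds the sulfur that Xdh and Aox1 need on their molybdenum centre. Mocos had 6.90 and 6.93 in the TA animals at 6 h, against 5.04 in the vehicle pool. At 24 h it had 7.32 and 7.31 in the TA animals, against 6.63 in the pool. All 4 TA arrays stood above both pools, the nearest by 0.27. The difference was 1.87 ± 0.09 at 6 h, the smallest p of all 18625 probe sets (limma adjusted p = 0.64), and 0.68 ± 0.09 at 24 h (adjusted p = 0.90). The TA animals differed from each other by 0.04 at 6 h and by 0.01 at 24 h. The mean of the effects at both times was 1.28 ± 0.07 (adjusted p = 0.36), and their difference, 24 h minus 6 h, was -1.19 ± 0.13 (adjusted p = 1.00).

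The size of the Mocos difference varied with the vehicle pool used. The pools stood 1.59 apart, 24 h over 6 h, and no other of the 9 genes reached 2-fold between pools by its brighter probe set, where 1.42% of all genes were at least 2-fold higher and 1.57% at least 2-fold lower. Against the vehicle pool of 24 h the TA animals of 6 h were higher by 0.29. TA animals of 24 h were higher than the vehicle pool of 6 h by 2.27. Between the TA groups, the 24 h animals were higher than the 6 h animals by 0.40 ± 0.08 (limma adjusted p = 0.21). TA animal 1 of 6 h, in the same inferred fluidics run as its pool, stood 1.85 above it. As for Ada, the part of the macrophage, erythroid and neutrophil markers in the Mocos values was not tested.

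**Figure D2:**
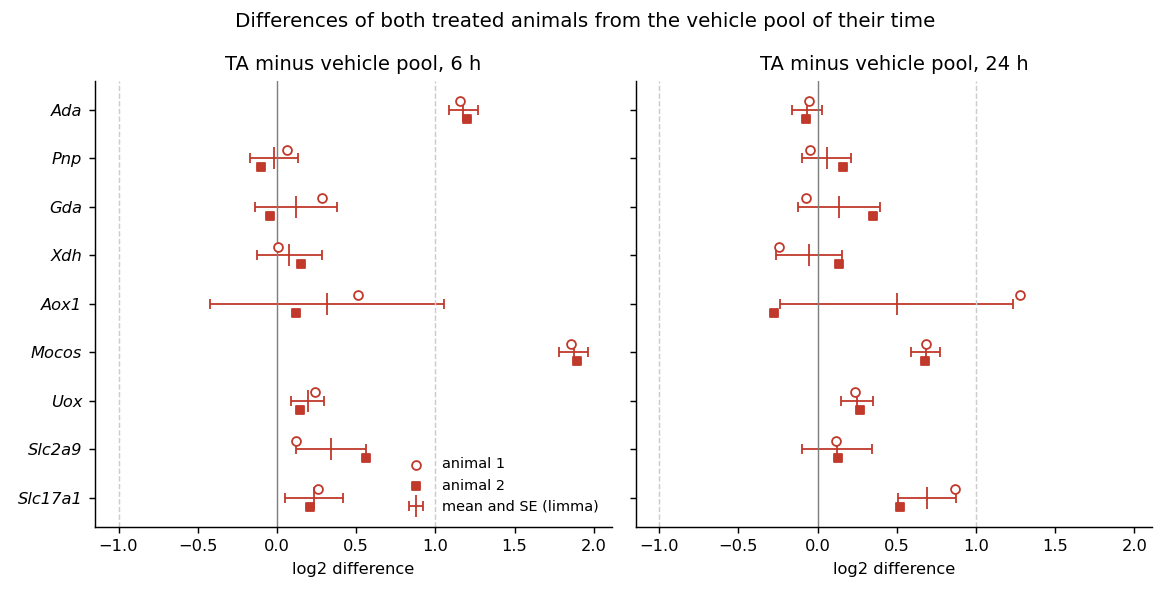
Log2 difference from the vehicle pool of the same time for each gene, at 6 h (left) and 24 h (right); open circles and filled squares are the 2 TA animals, the tick and bar are limma's mean and SE, and dashed lines mark 2-fold. Mocos and Ada lie beyond 2-fold in both animals at 6 h, and no gene does at 24 h.

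The promoters of Mocos and Ada are shown because these were the genes at least 2-fold above the vehicle pool in both animals at 6 h. Each sequence is the 250 bases before and the 50 after the gene's start in RefSeq's table of the GRCr8 build, written 5′ to 3′ on the gene's strand, for Mocos chr18:16206152-16206451 on the plus strand and for Ada chr3:172842234-172842533 on the minus strand. Capitals mark matches to the motifs searched on both strands.
Mocos: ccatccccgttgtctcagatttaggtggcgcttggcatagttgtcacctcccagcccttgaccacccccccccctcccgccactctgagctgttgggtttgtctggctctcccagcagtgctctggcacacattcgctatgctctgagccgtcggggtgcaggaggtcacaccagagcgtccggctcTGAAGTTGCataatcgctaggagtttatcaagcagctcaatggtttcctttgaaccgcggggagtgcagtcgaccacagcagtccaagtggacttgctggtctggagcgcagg
Ada: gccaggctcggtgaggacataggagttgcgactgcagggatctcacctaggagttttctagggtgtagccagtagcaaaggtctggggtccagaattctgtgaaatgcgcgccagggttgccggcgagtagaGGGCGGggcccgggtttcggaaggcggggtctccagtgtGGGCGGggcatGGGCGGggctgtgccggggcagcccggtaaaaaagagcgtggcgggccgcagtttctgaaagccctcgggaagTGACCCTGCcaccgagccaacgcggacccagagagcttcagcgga
The motifs were the GC box GGGCGG, the TATA box TATAAA, the CCAAT box CCAAT and the E box CACGTG of clock and Myc family factors. The last was TGANNNNGC, a loose form of the antioxidant response element core in which every N can be any base. Mocos had 1 match, TGAAGTTGC at base 188 of the window, which is position -63 from the start. Ada had 3 GC boxes and 1 match to the loose form, TGACCCTGC, 5 bases after the start. Neither held any of the other 3 motifs. The loose form was also present in 40.5% of 33469 rat promoters of the same length and in 5 of the 9 genes. The GC box was in 33.1% and in 3 of the 9. CCAAT was found in 37.5% of all promoters and 4 of the 9, TATAAA in 14.2% and 1 of the 9, and CACGTG in 6.42% and 0 of the 9. GC content was 59% for Mocos and 64.3% for Ada. A match describes the letters only, and binding was not measured.

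Urate oxidase (Uox) degrades urate and is abundant in rat liver. Uox had 13.85 and 13.75 in the TA animals at 6 h, against 13.61 in the vehicle pool. At 24 h it had 14.07 and 14.10 in the TA animals, against 13.84 in the pool. Both animals stood above their own pool at both times, but the TA animals of 6 h did not lie clear of the pool of 24 h. The differences were 0.19 ± 0.10 at 6 h and 0.25 ± 0.10 at 24 h (adjusted p = 0.97 for both), and their mean was 0.22 ± 0.07 (limma adjusted p = 0.76). The vehicle pool of 24 h was higher than that of 6 h by 0.23, between these differences in size.

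Slc2a9 encodes GLUT9, a urate carrier of liver and kidney. Slc2a9 had 7.78 and 8.22 in the TA animals at 6 h, against 7.66 in the vehicle pool. At 24 h it had 7.71 and 7.72 in the TA animals, against 7.59 in the pool. All 4 TA arrays were above both pools, by 0.05 at the nearest, which is less than the SE of 0.22. The differences were 0.34 ± 0.22 at 6 h and 0.12 ± 0.22 at 24 h.

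Slc17a1 encodes NPT1, a sodium phosphate cotransporter that also carries urate and organic anions. Slc17a1 had 10.92 and 10.87 in the TA animals at 6 h, against 10.66 in the vehicle pool. At 24 h it had 11.14 and 10.80 in the TA animals, against 10.28 in the pool. All 4 TA arrays were above both pools, the nearest by 0.13. The differences were 0.23 ± 0.18 at 6 h and 0.69 ± 0.18 at 24 h (limma adjusted p = 0.90), with a mean of 0.46 ± 0.13 (adjusted p = 0.75). The vehicle pool of 24 h was lower than that of 6 h by 0.39, and the TA means of 10.90 and 10.97 were 0.07 apart. Against the vehicle pool of 6 h, the TA animals of 24 h were higher by 0.31. Its neighbours in the RefSeq gene order are Slc17a4 and Slc17a3, followed by Slc17a2. Slc17a3 had 11.35 and 11.07 in the TA animals at 6 h, against 10.86 in the pool, and 11.25 and 10.78 at 24 h, against 10.71. Slc17a4 differed by -0.01 ± 0.20 at 6 h and 0.34 ± 0.20 at 24 h, and Slc17a2 by -0.16 ± 0.16 and -0.30 ± 0.16.

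By direction, 7 of the 9 genes were above the vehicle pool in both TA animals at 6 h, where 22.9% of all 10449 genes were, and none was below it in both, where 38.4% were. Pnp and Gda were the exceptions, and Xdh was counted as above although TA animal 1 exceeded the pool by only 0.0036. At 24 h, 4 of the 9 were above the pool in both animals against 28.1% of all genes, namely Mocos, Uox, Slc2a9 and Slc17a1, and 1, Ada, was below it in both against 34.5%. The same 4 were above at both times, where 8.1% of all genes were. Mocos, Slc2a9 and Slc17a1, 3 of the 9, had all 4 TA arrays above both pools, where 2.95% of all genes did. Both animals share 1 pool at each time, so these counts repeat the pool's own error. Mocos and Ada, 2 of the 9, were at least 2-fold above the pool in both animals at 6 h, where 0.249% of all genes were, and 0 at 24 h, where 0.258% were. The median difference over the 9 genes was 0.23 at 6 h and 0.14 at 24 h, beside -0.03 and -0.01 over all genes. The median of the 9 between vehicle pools, 24 h minus 6 h, was also 0.23. Because the 9 genes were chosen with earlier results of these data known, these counts and medians are no test of the list.

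For the mean of the effects at both times limma called 1 probe set of 18625 (0.00537%), and 4 of the 9 genes, Mocos, Uox, Ada and Slc17a1, had an unadjusted p under 0.05, as did 6.42% of probe sets. The difference of the effects gave 1 call (0.00537%), with 2 of the 9 genes, Mocos and Ada, under the unadjusted threshold beside 4.8% of probe sets. The 1 call in both was the same unnamed probe set as at 24 h. Between TA animals of 24 h and of 6 h there were 0 calls (0%), with 4 of the 9 genes, Mocos, Uox, Ada and Gda, under the unadjusted threshold beside 14.8% of probe sets. Mocos, Uox and Gda, 3 of the 9, had both 24 h animals above both 6 h animals, where 24% of all genes did, and Ada and Slc2a9, 2 of the 9, had both below, where 23.2% did.

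At 6 h no other measured gene of the purine lists differed from the pool by as much as Ada. Limma called none of these genes at either time, and each count at an unadjusted p under 0.05 is given below. For comparison with every list, 22.9% of all genes were above and 38.4% below the pool in both animals at 6 h. At 24 h the shares were 28.1% and 34.5%. An unadjusted limma p under 0.05 was found for 5.84% of probe sets at 6 h and 5.28% at 24 h. Of 29 other genes of purine degradation and the molybdenum cofactor, 18 had a probe set above the filter, with median differences of -0.02 at 6 h and 0.02 at 24 h. At 6 h 4 of them were above and 4 below the pool in both animals, and at 24 h 6 were above and 4 below, with 0 and 1 at an unadjusted p under 0.05. Suox, sulfite oxidase, another molybdenum enzyme, had 10.96 and 11.06 in the TA animals at 24 h, against 10.44 in the pool, a difference of 0.57 ± 0.13 (limma adjusted p = 0.90). Mocs2, a subunit of molybdopterin synthase, had 12.77 and 12.69 in the TA animals at 24 h against 12.44 in the pool, and 11.39 and 11.45 at 6 h against 11.44. Its 24 h difference of 0.29 ± 0.10 (adjusted p = 0.95) was smaller than the 1.00 between the vehicle pools. Urad, which decarboxylates a product of urate oxidation after Uox, had 10.44 and 10.80 in the TA animals at 6 h, against 11.17 in the pool, a difference of -0.55 ± 0.23 (adjusted p = 0.90). Nt5c3a, a nucleotidase, differed by 0.30 ± 0.14 at 6 h (adjusted p = 0.93).

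Among 13 measured genes of purine synthesis, of 17 listed, the medians were -0.01 at 6 h and 0.04 at 24 h. At 6 h 4 were above and 5 below the pool in both animals, and at 24 h 3 were above and 4 below, with 1 and 2 at an unadjusted p under 0.05. Gart, which catalyses several steps of the new synthesis of purines, had 6.83 and 6.68 in the TA animals at 6 h, against 6.08 in the pool, or 0.67 ± 0.21 (limma adjusted p = 0.84), but its other probe set had -0.33 ± 0.10. Gmps, GMP synthase, differed by -0.29 ± 0.17 at 6 h. Prps2, which makes the ribose phosphate donor, had 7.94 and 7.93 in the TA animals at 24 h, against 8.47 in the pool, or -0.54 ± 0.09 (adjusted p = 0.90). Adss1, which takes IMP towards AMP, had 9.48 and 9.82 in the TA animals at 24 h, against 8.83 in the pool, or 0.82 ± 0.24 (adjusted p = 0.91), while its other probe set had 0.14 ± 0.09. Of the 9 measured salvage genes, 1 was above and 5 below the pool in both animals at 6 h, and 2 above and 3 below at 24 h, with medians of -0.08 and 0.04 and none at an unadjusted p under 0.05. Ak4, a mitochondrial adenylate kinase, differed by -0.48 ± 0.25 at 6 h and -0.50 ± 0.25 at 24 h, and Guk1, guanylate kinase, by -0.21 ± 0.13 and -0.19 ± 0.13.

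Of 18 other urate transporters and their scaffold, 11 had a probe set above the filter, with medians of -0.01 at both times. There were 4 above and 2 below the pool in both animals at 6 h, and 4 above and 3 below at 24 h. Pdzk1, a scaffold that holds urate carriers in the membrane, was the 1 gene with an unadjusted p under 0.05 at 6 h, and 0 were at 24 h. It had 8.84 and 8.90 in the TA animals at 6 h, against 8.41 in the pool, or 0.47 ± 0.11 (limma adjusted p = 0.80). Abcc4, an organic anion pump, differed by 0.53 ± 0.33 at 6 h, carried by 1 animal at 5.87 beside the other at 5.18, against 5.00 in the pool. Of 7 measured nucleoside transporters and adenosine receptors, 0 were above and 4 below the pool in both animals at 6 h, and 5 above and 1 below at 24 h, with medians of -0.26 and 0.21. Over all genes, 38.4% were below at 6 h and 28.1% above at 24 h. None at 6 h and 1 at 24 h had an unadjusted p under 0.05. Adora1, a high-affinity adenosine receptor, had 6.84 and 6.78 in the TA animals at 24 h, against 6.21 in the pool, or 0.60 ± 0.14 (adjusted p = 0.90). Adora2b, a low-affinity adenosine receptor, had 7.25 and 5.02 in the TA animals at 24 h, against 3.61 in the pool, or 2.53 ± 1.04 (adjusted p = 0.97). The pool value is dim, and since differences are compressed near the floor of 2 to 3 on the log2 scale, the size of this one is uncertain. At 6 h Adora2b lay near the floor on all 3 arrays, at 2.65 and 3.02 in the TA animals and 2.73 in the pool. Adora2a, another adenosine receptor, differed by -0.26 ± 0.09 at 6 h, and its dimmer probe set, at 3.13 to 3.15, by -0.0033 ± 0.09. Slc29a3, a nucleoside carrier of lysosomes, differed by -0.37 ± 0.15 at 6 h, but its other probe set, with 5.32 and 5.18 in the TA animals against 5.22 in the pool, had 0.02 ± 0.19.

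**Figure D3:**
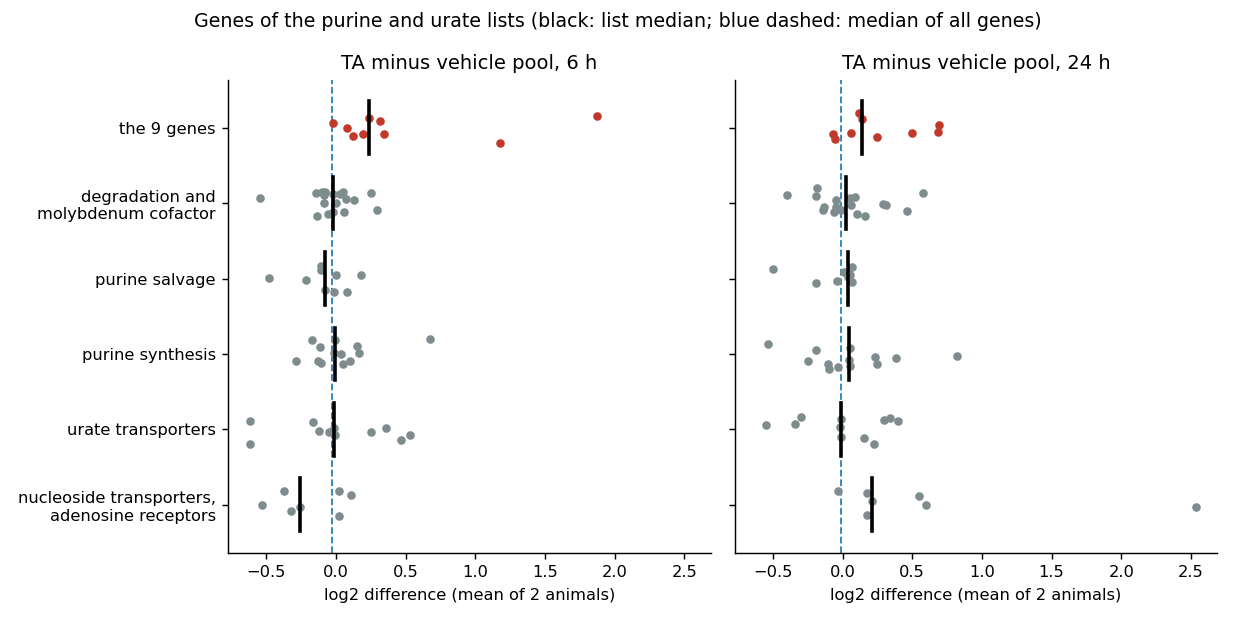
Log2 difference from the vehicle pool, as the mean of 2 TA animals, at 6 h (left) and 24 h (right), for the 9 genes (red) and the other measured genes of each list (grey), with the list median in black and the median of all genes dashed. The rows below the 9 genes centre near 0, except nucleoside transporters and adenosine receptors, whose medians are -0.26 and 0.21.

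The patterns most like Mocos and Ada were looked for among genes with an SD of at least 0.5 over the 6 arrays, 758 for Mocos and 759 for Ada. Closest to Mocos were Extl1 (Pearson r = 0.98), Clca2 (r = 0.97) and Wdr20 (r = 0.93), and closest to Ada were Mst1 (r = 0.99), Vsig10 (r = 0.98) and Adam23 (r = 0.94). All 6 were lowest in the vehicle pool of 6 h. Clca2 had 6.32 and 7.21 in the TA animals at 6 h, against 2.42 in the pool, and 7.41 and 7.10 at 24 h, against 6.67. Mst1, the macrophage-stimulating protein made by hepatocytes, had 11.23 and 11.92 at 6 h in the TA animals, against 7.39 in the pool, and 10.88 and 10.68 at 24 h, against 11.02. Over the same arrays Mocos and Ada had r = 0.87 with each other, Mocos and Uox 0.84, and Uox and Gda 0.85. These are descriptions over 6 arrays, in which 1 low pool weighs heavily.

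**Figure D4:**
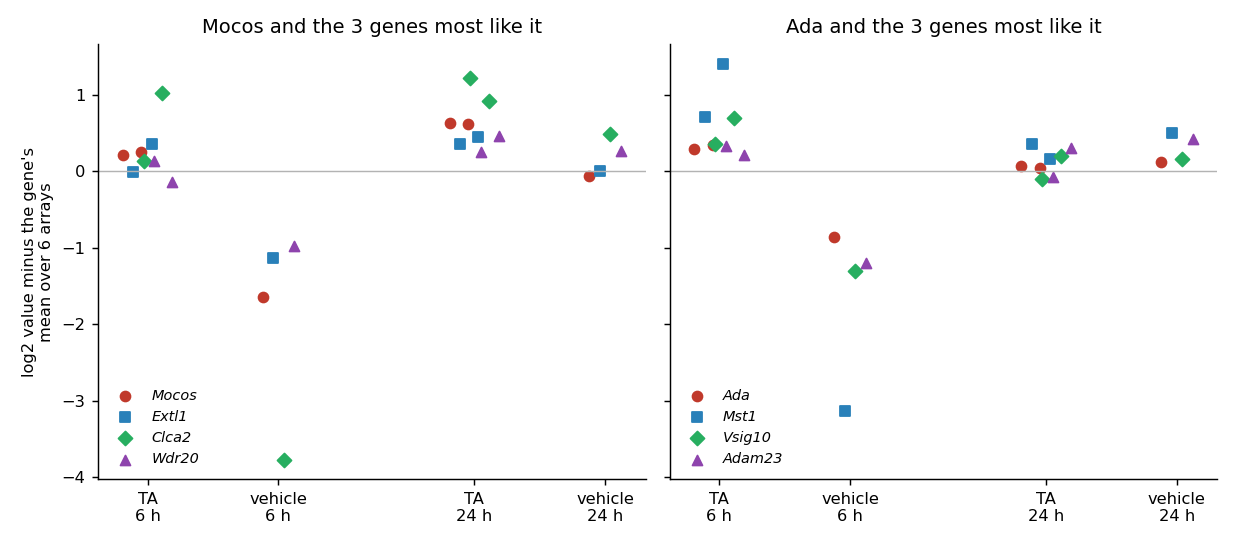
Log2 value minus the gene's own mean over the 6 arrays for Mocos (left) and Ada (right) with the 3 genes most like each, by group, with TA left of the vehicle pool of its time and symbols shifted sideways for legibility. Each gene has its lowest value in the single vehicle pool of 6 h, with Clca2 and Mst1 the furthest down.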

How the data were processed

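Liver RNA was hybridised to 6 Affymetrix Rat230_2 arrays, and the authors deposited their processed values on a log2 scale. The submitters' processing notes name R 2.0.1, affy 1.5.8, RMA and GCRMA. Whether RMA or GCRMA gave these values is not stated in those notes as used here. Values near 2 to 3 form a floor where differences are compressed. Precision is limited by the number of arrays. Fluidics runs were inferred from clock times in the array settings, without the date, and not from a stated batch.

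The table has 31099 probe sets, 57 of them controls, which were removed. By the platform annotation, whose names can be outdated, 20826 have 1 symbol, 436 several and 9780 none. A probe set was kept when its mean exceeded the 40th percentile (2.82), which 18625 did. Where a gene had more than 1, the brightest stood for it, and 10449 genes had one. Limma 3.58.1 in R 4.3.3 fitted the group means over all arrays with 2 residual and 1.60 prior degrees of freedom. Tests were two-sided, with Benjamini-Hochberg adjustment over all kept probe sets, and called under 0.05. P-values rest on the spread between TA animals, moderated by the prior over all kept probe sets. They hold no spread between vehicle rats, since each vehicle group was 1 pool.

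The 9 genes and the lists were chosen with earlier results of these data known. In the other lists, genes past the threshold were named or, with none, the 2 with the smallest p at each time. Slc17a3, a neighbour of Slc17a1, was added after its values were seen. The 3 genes most alike by Pearson r were named for genes at least 2-fold from the pool in both animals. TA animals of the 2 times were different animals that share only a replicate number. Alternatives covered the filter, prior, normalization, centring, control pool, probe set summary, fluidics run, replicate block and leaving out arrays.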

Additional observations from a re-analysis of the deposited data

Results flagged for a closer look

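Ada was above its vehicle pool at 6 h and level with it at 24 h. Both TA animals of 6 h were above the pool, by 1.15 and 1.20 on the log2 scale. Both TA animals of 24 h were slightly below theirs, with differences of -0.06 and -0.08, which are smaller than the SE of 0.09. The difference of the effects, 24 h minus 6 h, was -1.24 ± 0.13 (SE), with a limma adjusted p of 1.00. The levels were 6.71 and 6.75 in TA animals against 5.55 in the vehicle pool at 6 h, and 6.48 and 6.46 against 6.53 at 24 h. The vehicle pools stood 0.98 apart, and against the pool of 24 h the TA animals of 6 h were higher by only 0.19.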

How the results depend on the processing

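None of the 9 genes was called under any of 242 alternatives run for 20 of their results, of which 22 changed sign. Several of these alternatives leave a difference as it was and so cannot change its sign. They are no filter, the prior with a trend and, for a difference at 1 time, leaving out a TA array of the other time. With the fluidics run as a block, differences at 24 h also stay the same. Those at 6 h then equal the values without TA animal 2 of 6 h. Calls over all probe sets were few throughout. Against the vehicle pool of the other time, 1 was called at 6 h and 0 at 24 h. A prior with a trend gave 2 at 24 h and 2 for the mean of the effects. Both pools taken as 1 control group, the replicate block and the fluidics run as a block each gave 0 at 24 h, 0 for the mean and 0 for the difference of the effects. Leaving out 1 TA array gave 0 to 2 at 24 h, 0 for the mean and 0 for the difference. Of the 9 genes, 7 were above the pool in both animals at 6 h. The number was 5 with the pool of the other time, 6 with both pools as 1 control group and 8 after quantile normalization. At 24 h (4) it was 7, 6 and 4 in the same settings. With 1 TA array of the time left out, only the remaining animal has to be above the pool, so the number cannot fall. It was then 7 to 9 at 6 h and 5 to 7 at 24 h.

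With the pool of the other time the log2 difference was -0.18 at 6 h and 0.21 at 24 h for Xdh, -0.039 at 6 h for Uox, 0.92 at 24 h for Ada, -0.38 at 24 h for Aox1 and -0.62 at 6 h for Gda. With both pools as 1 control group it was -0.052 and 0.077 for Xdh, 0.42 for Ada at 24 h, -0.25 for Gda at 6 h, and 0.40 for the Mocos effect of 24 h minus 6 h. Over all settings Mocos at 6 h came to between 0.29 and 1.91 and Ada at 6 h to between 0.19 and 1.23. Pnp at 6 h was 0.039 after quantile normalization, 0.0067 as the mean of its probe sets and 0.064 with the fluidics run as a block, and Gda at 24 h was -0.055 as the mean of its probe sets. Leaving out 1 TA array gave -0.24 to 0.13 for Xdh at 24 h, -0.28 to 1.28 for Aox1 at 24 h, -0.10 to 0.064 and -0.047 to 0.16 for Pnp at 6 h and 24 h, and -0.041 to 0.28 and -0.074 to 0.35 for Gda. It also moved Slc2a9 at 6 h to between 0.12 and 0.56 and Aox1 at 6 h to between 0.12 and 0.51, with Mocos at 6 h between 1.85 and 1.89. The cause was not tested. With the replicate block Mocos was 1.86 and Ada 1.17 at 6 h, Xdh was -0.052 at 6 h and -0.19 at 24 h, Aox1 0.80 and 0.99, and Slc2a9 0.23 and 0.0079. Deviations of same-numbered TA animals had r = -0.08 across probe sets, with 2 numbers. Probe sets near the floor can show little difference.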

Other observations

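Abcc2, the canalicular organic anion pump MRP2, was among the urate transporters and is named here after its values were seen. It had 12.79 and 12.31 in the TA animals at 6 h, against 12.67 in the vehicle pool, and 12.23 and 10.84 at 24 h, against 11.14. As in Aox1, TA animal 1 of 24 h stood near the arrays of 6 h, while TA animal 2 stood near the vehicle pool of 24 h. Its differences from the pools were -0.12 ± 0.68 at 6 h and 0.40 ± 0.68 at 24 h (SE, limma adjusted p = 1.00 for both). Abcg2, the urate exporter BCRP, also separated the TA animals, with 7.44 and 9.17 at 6 h against 8.92 in the pool, and 8.35 and 7.48 at 24 h against 8.47.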
